A study of Drosophila melanogaster and Drosophila simulans and Drosophila yakuba with 12 samples.

Results

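mir-184 is a conserved microRNA (miRNA) gene, and its reads were followed in 12 small RNA libraries of 3 fruit fly species. The rule took the hairpin named mir-184 in each species, with both of its arms, and every library was read on the hairpin of its own species. This gave 1 of 80 hairpins in D. yakuba, 1 of 136 in D. simulans and 1 of 176 in D. melanogaster. Its 3p arm, miR-184-3p, held 29357 of 172112 miRNA reads, and its 5p arm, miR-184-5p, held 0.

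A miRNA hairpin is cut from a longer primary transcript by Drosha and then by Dicer, which leaves a duplex of a 5p and a 3p strand. One strand is kept by Argonaute, and the bases just after its 5′ end, the seed, pair with target mRNAs, so that a shift of the 5′ end changes the seed. The 3′ end is more variable, since it can be trimmed or extended by enzymes that add bases the genome does not encode. In D. melanogaster, miR-184 is known for its requirement in the female germ line and in early embryos, and in mammals it is known as an abundant miRNA of the corneal and lens epithelium.

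The study set the start of metamorphosis beside the late larva. Prepupae were collected at most 1 h after the puparium (the hardened larval skin) had formed, and larvae 18 h before that point. The groups were male prepupae (1 RNA sample, 2 libraries) and male larvae (1 library) of the D. yakuba line 14021-0261.00, and male prepupae (1 RNA sample, 2 libraries) and male larvae (1 library) of the D. simulans line 14021-0251.167. In D. melanogaster, strain Oregon-R, they were female prepupae and female larvae (1 library each), male prepupae (2 RNA samples) and male larvae (2 RNA samples). All larvae were raised on medium dyed with bromophenol blue, and RNA came from whole bodies. The 2 prepupal libraries of D. yakuba, and the 2 of D. simulans, are technical libraries of 1 RNA, so the 12 libraries stand for 10 RNA samples. Whole bodies do not show which tissue a read came from, so the epithelial origin that the gene is known for could not be checked here.

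Each library carried 1 of 5 indexes, 4 bases at the 3′ end of the 5′ adaptor and so directly before the first base of the miRNA. Sets of 4 libraries were pooled for the 3′ adaptor, and the numbers 1, 3 and 4 in the sample names, each shared by 4 libraries of different indexes, are taken here as the pools. Totals were 1423 to 48209 reads per library, and a count of 0 allows a share of up to 0.00622% in the deepest and 0.211% in the shallowest library. The muscle marker miR-1-3p held 0.978% to 47.4% of the reads, while miR-133-3p, also of muscle, was at 0 in every library. The ovary markers miR-989-3p and miR-318-3p held at most 2 reads and the testis list at most 53 reads in a library. The testis list and miR-989-3p are not among the D. yakuba hairpins, so they were not measured in its libraries. let-7-5p, the stage marker, held 0.0552% to 0.853% in prepupal libraries and 0% to 0.105% in larval libraries. The part of these markers in the results on mir-184 was not tested.

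In the Release 6 assembly (BDGP6) of D. melanogaster, mir-184 (FBgn0262391) spans positions 13329402 to 13329501 on the minus strand of chromosome arm 2R. The 3p arm lies at 13329420 to 13329441 and the 5p arm at 13329460 to 13329480. The gene lies inside an exon, at 13329352 to 13330954, of the long noncoding RNA CR44206 (13329352 to 13344808), on the same strand. No protein-coding gene overlaps the hairpin in this annotation. The mature 3p arm is 22 nt long and identical in the 3 species, within hairpins of 87 nt in D. yakuba, 88 nt in D. simulans and 100 nt in D. melanogaster. In all 3 hairpins the 6 bases that follow the 3p arm are the same as the first 6 bases of the 3′ adaptor. Of the 179 annotated arms of D. melanogaster, 1 other shared 3 or more bases in this way.

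miR-184 came from 1 strand of its duplex. Against a floor of 3 counts for the 5p arm over all libraries, the 3p arm was at least 9786-fold higher, and a count of 0 allows a share of up to 0.00174% of all reads for miR-184-5p. Of the 20 hairpins with 1000 or more reads, 4 had none on the minor arm: mir-184, the muscle miRNA mir-1, mir-31a and mir-31b. Among the other 16 the largest ratio was that of mir-252, with 1058 reads against 1.

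miR-184-3p was 1 of the most abundant miRNAs in every library. It ranked first in 4 libraries (1 of D. simulans prepupae, D. melanogaster female prepupae, and 1 each of its male prepupae and male larvae) and no lower than sixth. Its share had a median of 12.5% and ran from 6.39% in the second library of D. melanogaster male prepupae to 23.6% in the first of D. simulans prepupae, a 3.69-fold range. Among the 10 arms with the highest mean share, only miR-31a-5p (3.01-fold) and miR-31b-5p (2.33-fold) had narrower ranges, while that of miR-8-3p, a miRNA of growth control, was 451.8-fold.

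In D. yakuba male prepupae the share was 12.2% (2656 of 21744 reads, exact 95% interval 11.8% to 12.7%) and 8.22% (117 of 1423, 6.85% to 9.77%) in the 2 libraries of 1 RNA. D. yakuba male larvae had 10.96% (409 of 3731, 9.98% to 12.0%), between the 2 prepupal libraries. In D. simulans male prepupae it was 23.6% (5545 of 23502, 23.1% to 24.1%) and 10.1% (514 of 5086, 9.29% to 10.97%). D. simulans male larvae had 23.2% (1107 of 4762, 22.1% to 24.5%), close to the first prepupal library, which has the same index, and far from the second.

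Female prepupae of D. melanogaster had 21.6% (10391 of 48209, 21.2% to 21.9%). Female larvae had 6.93% (327 of 4721, 6.22% to 7.69%). This was the widest gap between stages of any species and sex, with 1 library on each side.

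D. melanogaster male prepupae had 20.9% (2222 of 10629, 20.1% to 21.7%) and 6.39% (577 of 9024, 5.90% to 6.92%), a mean of 13.6% ± 10.3 (SD, n = 2). Male larvae had 14.4% (4193 of 29168, 13.97% to 14.8%) and 12.8% (1299 of 10113, 12.2% to 13.5%), a mean of 13.6% ± 1.08 (SD, n = 2). The 2 larval values lie between the 2 prepupal ones, so the groups overlap.

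**Figure D1:**
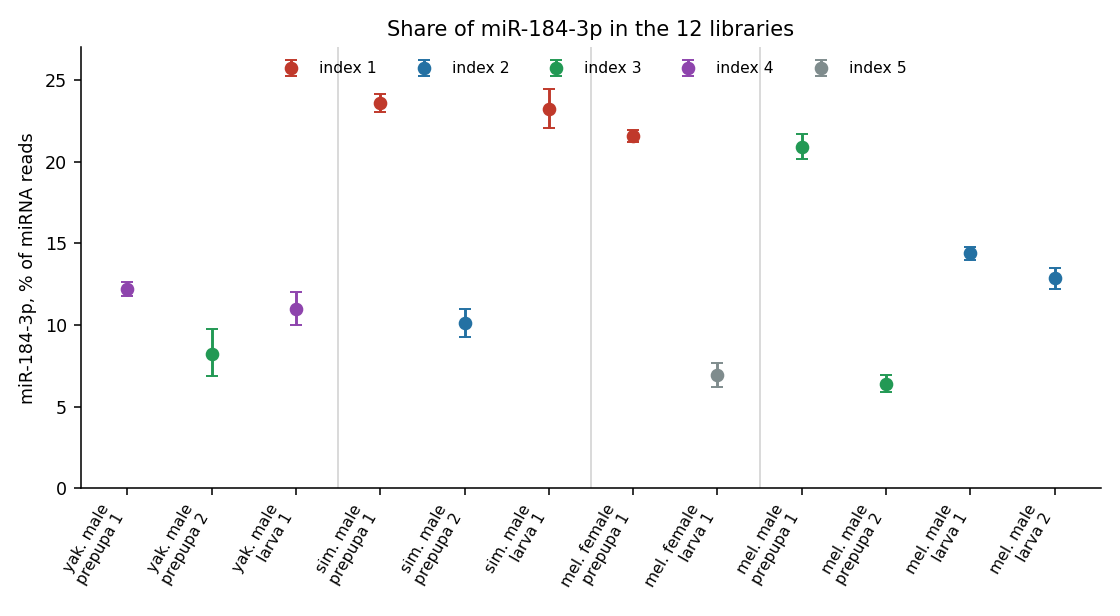
Share of miR-184-3p among the miRNA reads (%, vertical axis) in each of the 12 libraries (horizontal axis), with exact 95% intervals that cover counting error only, coloured by the index of the library (1 is GACT, 2 ACTG, 3 TGAC, 4 CGAT, 5 CTGA). The 3 libraries with index 1 lie at 21.6% to 23.6%, above the other 9, and they come from 2 species, both sexes and both stages.

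Stage was compared first, since the study asked what changes at the start of metamorphosis. The level of miR-184-3p did not pass the test in any form of this comparison. In D. melanogaster males the edgeR quasi-likelihood F test gave a log2 change of 0.13 ± 0.88 for prepupae over larvae (SE, n = 2 and 2, Benjamini-Hochberg adjusted p = 0.941), where 6 of 70 arms were called (8.57%). With the pool as a block in the 4 male libraries alone it was 0.0029 ± 2.07 (edgeR, adjusted p = 0.999), with 20 of 50 arms called, against 10 of 50 in the same libraries without the block. The sign of the change turned without the first male prepupa library, to −0.61 (edgeR, adjusted p over each library left out 0.617 to 0.961), and with other filters on low counts.

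Over both sexes of D. melanogaster the log2 change was 0.67 ± 0.95 (edgeR, n = 3 and 3, adjusted p = 0.888; 2 of 48 arms called, 4.17%, and 1 with the replicate number as a block). Across the males of 3 species it was −0.19 ± 0.47 (edgeR, n = 4 and 4 RNA samples, adjusted p = 0.759; 1 of 35 arms called, 2.86%, and 0 with the block), beside a median of −0.30 over all arms tested. Its sign turned with RLE scaling (0.12, median −0.03) and upper-quartile scaling (0.39, median 0.34). With the pool as a term, technical libraries apart, it was −0.58 ± 0.31 beside a median of 0.12 (edgeR, adjusted p = 0.316), and with only the second technical libraries −0.36 beside a median of 0.07.

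The ratio of shares, prepupae over larvae, was 1.09 in D. yakuba (exact 95% counting interval 0.984 to 1.21), 0.912 in D. simulans (0.855 to 0.973), 3.11 in D. melanogaster females (2.79 to 3.48) and 1.02 in its males (0.973 to 1.07). These intervals cover counting error only and not the spread between animals. In D. simulans, the prepupal and larval libraries with index GACT gave a ratio of 1.01 (0.951 to 1.08). In D. yakuba, the libraries with index CGAT gave 1.11 (1.00 to 1.24). In D. melanogaster the stages share no index, so stage and index cannot be told apart.

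Libraries of the same group or RNA differed by as much as any stages did. From 1 RNA of D. simulans prepupae, the GACT library gave a share 2.33 times that of the ACTG library (2.13 to 2.56), and from 1 RNA of D. yakuba prepupae the CGAT library gave 1.49 times that of the TGAC library (1.23 to 1.80). Index and pool change together in both pairs. The 2 male prepupal samples of D. melanogaster, which share the index TGAC, differed 3.27-fold (2.98 to 3.59), and the 2 male larval samples, which share ACTG, differed 1.12-fold (1.05 to 1.19). By index, shares were 21.6% to 23.6% in the 3 GACT libraries, 10.1% to 14.4% in the 3 ACTG libraries, 6.39% to 20.9% in the 3 TGAC libraries and 10.96% to 12.2% in the 2 CGAT libraries. In whole bodies, fewer cells that hold the miRNA and less of it in each cell cannot be told apart.

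Whether the change with stage differed between species or sexes was tested by interaction terms. D. yakuba males, D. simulans males and D. melanogaster females each had 1 RNA sample a stage. The p-values of these terms therefore measure only the spread between D. melanogaster male samples of a stage. For D. yakuba minus D. melanogaster the difference of log2 changes was −0.02 ± 2.05 (edgeR, adjusted p = 1.000) and for D. simulans minus D. melanogaster −0.26 ± 2.04 (edgeR, adjusted p = 1.000). edgeR called 0 of 51 arms in each (0%), with 1 and 5 arms at an unadjusted p under 0.05, and DESeq2 called 0 and 1. The joint test gave an edgeR adjusted p of 1 with 0 of 51 arms called (0%) and 2 at an unadjusted p under 0.05. For females minus males of D. melanogaster the difference was 2.20 ± 1.54 (edgeR, adjusted p = 0.497; 1 of 70 arms called, 1.43%, and 25 with the replicate number as a block). Here the 3.11-fold ratio of the female libraries stood beside 1.02 in males, and females had 1 library a stage.

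The tests of species and of sex on the level did not pass the threshold either. D. yakuba males minus D. melanogaster males gave a log2 difference of 0.02 ± 0.64 (edgeR, adjusted p = 0.974); edgeR called 0 of 44 arms (0%), with 9 at an unadjusted p under 0.05, and DESeq2 called 6. D. simulans minus D. melanogaster gave 0.42 ± 0.64 (edgeR, adjusted p = 0.612; 3 of 44 arms called, 6.82%), beside a median of −0.85 over all arms. D. yakuba minus D. simulans gave −0.39 ± 0.75 (edgeR, adjusted p = 0.895; 4 of 44 called, 9.09%). With technical libraries of 1 RNA summed, D. yakuba samples had shares of 12.0% in prepupae and 10.96% in larvae, D. simulans samples 21.2% in prepupae and 23.2% in larvae, and the 4 male samples of D. melanogaster 6.39% to 20.9%. The D. simulans samples lie above the other male samples, but 2 of their 3 libraries carry GACT, and the ACTG library lies at 10.1%.

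Females minus males of D. melanogaster gave a log2 difference of 0.09 ± 1.19 (edgeR, adjusted p = 0.982; 1 of 58 arms called, 1.72%, and 0 with the block). Its sign turned to −1.25 without the female prepupa library, and with RLE, upper-quartile or library-total scaling. The ratio of shares, females over males, was 1.51 in prepupae (1.45 to 1.58) and 0.495 in larvae (0.442 to 0.554), in opposite directions.

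Other miRNAs known from epithelia and imaginal discs, a list of 13 arms, mostly stayed under the threshold as well. In D. melanogaster males 12 were tested for stage, of which 1 rose (miR-8-3p, log2 change 4.05 ± 1.13, edgeR adjusted p = 0.0107) and 1 fell (miR-7-5p, known from photoreceptor differentiation, −4.94 ± 1.65, adjusted p = 0.0463), with a median log2 change of 0.59 beside 0.12 over all 70 arms, of which 6 were called (8.57%). In stage by sex, females minus males, miR-8-3p had a difference of log2 changes of −9.27 ± 2.14 (edgeR). Females had 1 library a stage, where miR-8-3p held 4.17% in larvae (index CTGA) and 0.0685% in prepupae (index GACT). No other D. melanogaster library carried either index, and the 2 male prepupal libraries alone held 4.18% and 30.9%. A difference between the sexes can therefore not be told apart from index or from a difference between single libraries. For stage across species, 0 of 9 arms of the list tested were called by edgeR and 0 had an unadjusted p under 0.05. This stood beside 1 of 35 called over all arms (2.86%), with a median of 0.30 beside −0.30. The 3 arms of the female germline list, miR-989-3p, miR-318-3p and miR-994-5p, were tested in no comparison. They did not pass the filter on low counts, or were not among the arms shared by the 3 species.

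Over the 10 RNA samples, 10 other arms had at least 10 reads in each. On the log2 CPM scale, the arms most like miR-184-3p were miR-33-5p, known for lipid control (Pearson r = 0.62, Spearman rho = 0.55), miR-31a-5p (0.60 and 0.59), miR-276a-3p (0.55 and 0.62) and miR-263a-5p, known from sense organ survival (0.42 and 0.42). The least like were miR-8-3p (−0.64 and −0.62) and miR-8-5p (−0.40 and −0.41). The values are a description over samples that differ in species, depth and index.

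miR-8-3p exceeded miR-184-3p in 2 of the 3 TGAC libraries and in no other library. In the second library of D. melanogaster male prepupae miR-8-3p held 30.9% of the reads and miR-184-3p 6.39%, and in the second of D. yakuba prepupae they held 29.5% and 8.22%. In the third TGAC library, the first of D. melanogaster male prepupae, they held 4.18% and 20.9%. In D. melanogaster female prepupae miR-8-3p held 0.0685%, its lowest share, and miR-184-3p 21.6%.

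The 5′ end of miR-184-3p was fixed in most libraries. Over all libraries 28225 of 29357 reads (96.1%) began at the annotated first base, 1056 began 1 base inside it (3.597%), 59 began 2 bases inside it (0.201%) and 17 began upstream. The usual start held 99.9% and 100% of the reads in D. yakuba male prepupae and 100% in its male larvae. It held 88.9% and 98.4% in D. simulans male prepupae and 90.9% in its male larvae. In D. melanogaster it held 96.6% in female prepupae, 100% in female larvae, 99.96% and 99.8% in male prepupae and 99.1% and 98.5% in male larvae.

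Starts 1 base inside were found almost entirely in libraries with index GACT. They made up 11.1% of miR-184-3p reads (613 of 5545, exact 95% interval 10.2% to 11.9%) in the first library of D. simulans prepupae. D. simulans larvae had 9.12% (101 of 1107, 7.49% to 10.98%). D. melanogaster female prepupae had 3.27% (340 of 10391, 2.94% to 3.63%). These are the 3 GACT libraries, with 1054 of 17043 reads together. The other 9 libraries had 2 of 12314 (0.0162%), both in the first library of D. yakuba prepupae.

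Starts 2 bases inside were found in the 3 ACTG libraries and in no other library. The second library of D. simulans prepupae had 1.56% (8 of 514, 0.674% to 3.04%). D. melanogaster male larvae had 0.763% (32 of 4193, 0.523% to 1.08%) and 1.46% (19 of 1299, 0.883% to 2.27%). The other 9 libraries had 0 of 23351, which allows a share of up to 0.0128%. The 2 kinds of shifted start therefore did not occur together in any library.

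**Figure D2:**
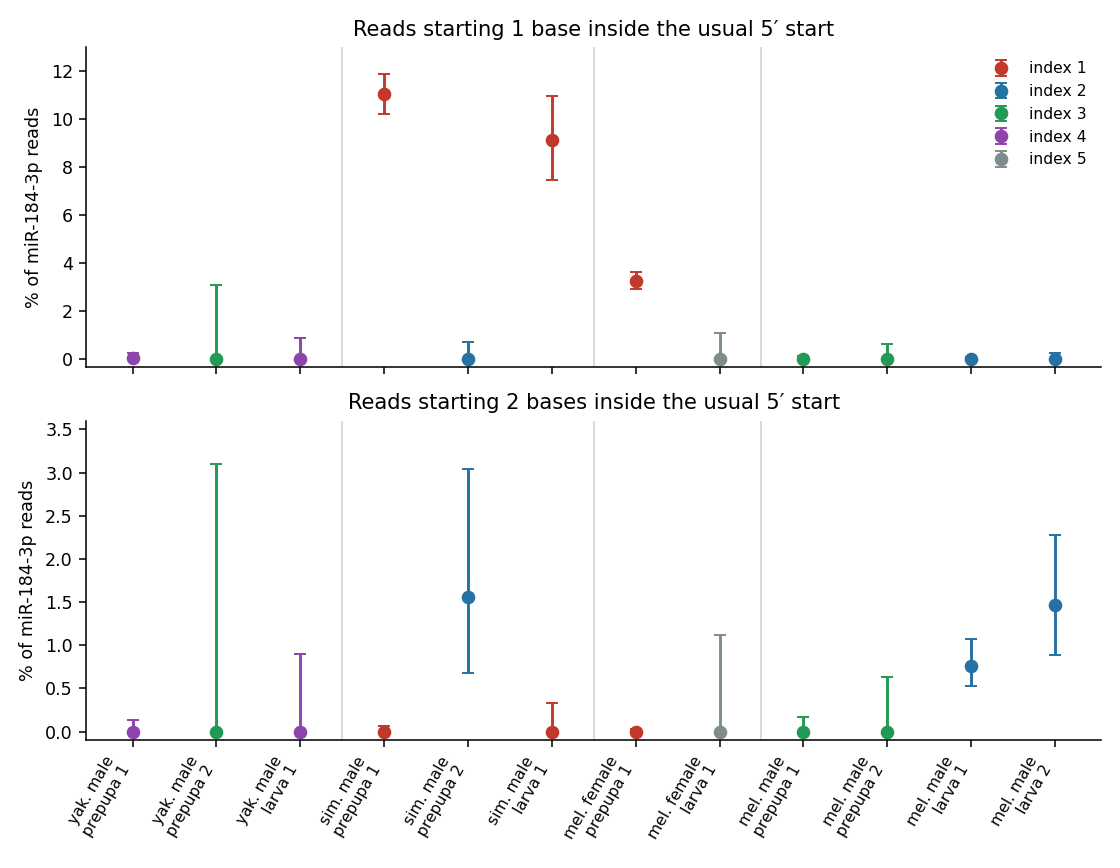
Share of miR-184-3p reads (%, vertical axes) that begin 1 base (upper panel) or 2 bases (lower panel) inside the usual 5′ start, in each library, with exact 95% intervals, coloured by index (1 is GACT, 2 ACTG, 3 TGAC, 4 CGAT, 5 CTGA). Starts 1 base inside reach 3.27% to 11.1% with index 1, and starts 2 bases inside reach 0.763% to 1.56% with index 2.

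The RNA of D. simulans prepupae was made into libraries with both indexes. Its GACT library had 613 of 5545 reads 1 base inside and 0 of 5545 at 2 bases inside, while its ACTG library had 0 of 514 at 1 base inside and 8 of 514 at 2 bases inside. The first base of miR-184-3p is the last base of the index GACT, and its first 2 bases are the last 2 of the index ACTG (with U for T). CGAT also ends in the first base of miR-184-3p, and its 2 libraries had 2 of 3065 reads 1 base inside (0.0653%). TGAC and CTGA end in another base, and their libraries had 0 of 2916 and 0 of 327.

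Other arms were examined in the same way after this was seen, among arms with at least 50 reads in a library. In the GACT library of D. simulans prepupae, 442 of 13278 reads of the 14 other arms that begin like the index ends started 1 base inside (3.33%), against 0.391% for the 10 arms that begin with another base. In the GACT library of D. simulans larvae it was 2.99% over 10 arms, against 0% over 5 arms. Female prepupae of D. melanogaster had 1.05% over 24 arms, against 0.289% over 21. In the ACTG libraries, starts 2 bases inside made up 0.186% against 0.0394% in D. simulans prepupae, and 0.172% against 0.0432% and 0.797% against 0.198% in the 2 male larval samples of D. melanogaster. In each of the 6 libraries miR-184-3p lay above the summed value of the matching arms, and 9.12% and 11.1% in D. simulans were below the highest single arms, miR-275-3p with 12.1% and miR-995-3p with 14.3%. Single arms that begin with another base could also be high: bantam-5p, from a growth-promoting miRNA gene, had 16.4% of its reads 1 base inside in the GACT library of D. simulans prepupae and 15% in D. melanogaster female prepupae. In the CGAT library of D. yakuba prepupae, matching arms had 0.174% and the others 0.208%.

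**Figure D3:**
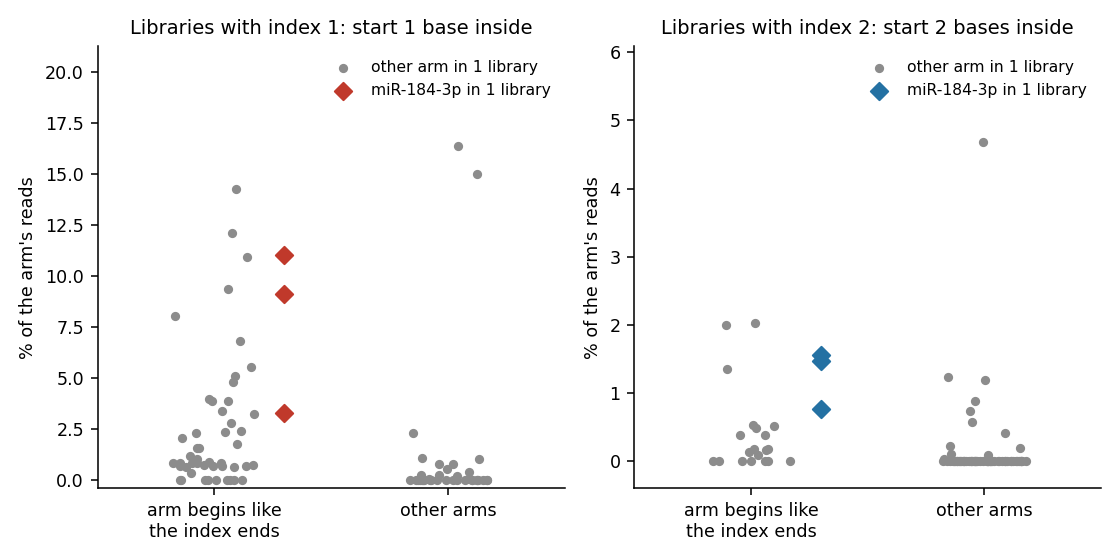
Share of an arm's reads (%, vertical axes) that begin 1 base inside the usual start in the 3 libraries with index GACT (index 1, left) and 2 bases inside in the 3 libraries with index ACTG (index 2, right), for arms with at least 50 reads. Each grey point is 1 other arm in 1 library, coloured diamonds are miR-184-3p, and arms are split by whether their first base (left) or first 2 bases (right) are the last of the index.

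By species the usual start differed in the fit without the index. D. yakuba males minus D. simulans males gave a difference in log odds of 4.63 ± 1.04 (limma, SE, adjusted p = 0.000627; 3 of 7 arms called, 42.9%), and D. simulans minus D. melanogaster −3.31 ± 0.90 (limma, adjusted p = 0.00285; 4 of 7 arms called, 57.1%). With the index as a term, in fits that keep technical libraries apart and so count 12 libraries as samples, they were −0.77 ± 1.88 and −0.40 ± 1.48 (limma, adjusted p = 0.906 and 0.959), so neither call was kept. With the replicate number as a block they were 3.56 and −2.84 (limma, adjusted p = 0.0455 and 0.0528), and with the pool as a term 3.56 and −2.49 (limma, adjusted p = 0.0547 and 0.191). Without the first library of D. simulans prepupae or the first of D. melanogaster male larvae the difference between D. simulans and D. melanogaster was −2.35 or −3.57 and no longer passed the limma threshold (highest adjusted p over each library left out 0.0963).

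D. yakuba minus D. melanogaster gave 1.32 ± 0.90 in log odds (limma, adjusted p = 0.578), females minus males −0.62 ± 0.90 (limma, adjusted p = 0.689) and prepupae minus larvae 0.28 ± 0.66 (limma, adjusted p = 0.948). limma called 0 of 7 arms in each (0%), with 0, 2 and 0 arms at an unadjusted p under 0.05. Without the female larva library, which had all of its 327 reads at the usual start, the difference between the sexes was −2.75. Females were then 1 library, with index GACT, which no D. melanogaster male library carried. Sex therefore cannot be told apart from index or from a single library there. An exact two-sided permutation of stage within species and sex gave p = 0.958 for the start, where 48 arrangements allow a smallest p of 0.0417.

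The 3′ end of miR-184-3p was also sharp. Over all libraries 26454 reads (90.1%) ended at the annotated last base, 1402 (4.78%) were 1 base shorter and 689 (2.35%) 2 bases shorter. Another 721 (2.46%) were 1 base longer, with a base that matches the hairpin. Over libraries the usual end had a median of 92.0%, the second highest among the 10 arms with the highest mean share. By comparison, miR-31a-5p had a median of 37.5% at its most common end and miR-282-5p 94.5%. Reads averaged 21.8 to 21.96 nt.

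The usual end held 94.9% and 90.6% in D. yakuba male prepupae and 92.9% in its male larvae. It held 92.9% and 93.0% in D. simulans male prepupae and 94.3% in its male larvae. In D. melanogaster it held 88.9% in female prepupae and 83.5% in female larvae, 85.9% and 92.2% in male prepupae and 86.5% and 91.8% in male larvae. Within each male group of D. melanogaster the lower value came from pool 1 and the higher from pool 3.

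Reads ending before the usual 3′ end were most frequent in the 4 libraries of pool 1. They made up 8.64% in female prepupae, 14.4% in female larvae, 11.8% in the first male prepupal and 9.99% in the first male larval library of D. melanogaster. The 8 libraries of pools 3 and 4 had 3.16% to 6.41%, including D. melanogaster males at 6.41% in prepupae and 4.54% in larvae, so the pools did not overlap. Summed over the other arms with at least 50 reads, the order was the opposite: 11.9% to 15.1% in pool 1 and 15.7% to 26.8% in pools 3 and 4. Of the 13 other arms with 50 reads in all 4 male libraries of D. melanogaster, 4 had more short reads in pool 1 in both stages and 7 fewer. Only D. melanogaster is in pool 1, so there species and pool can be compared only through pool 3. The part of the pool in these ends was not tested. A fit of the usual 3′ end with the pool as a term, given below, gives only the species differences beside that term.

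**Figure D4:**
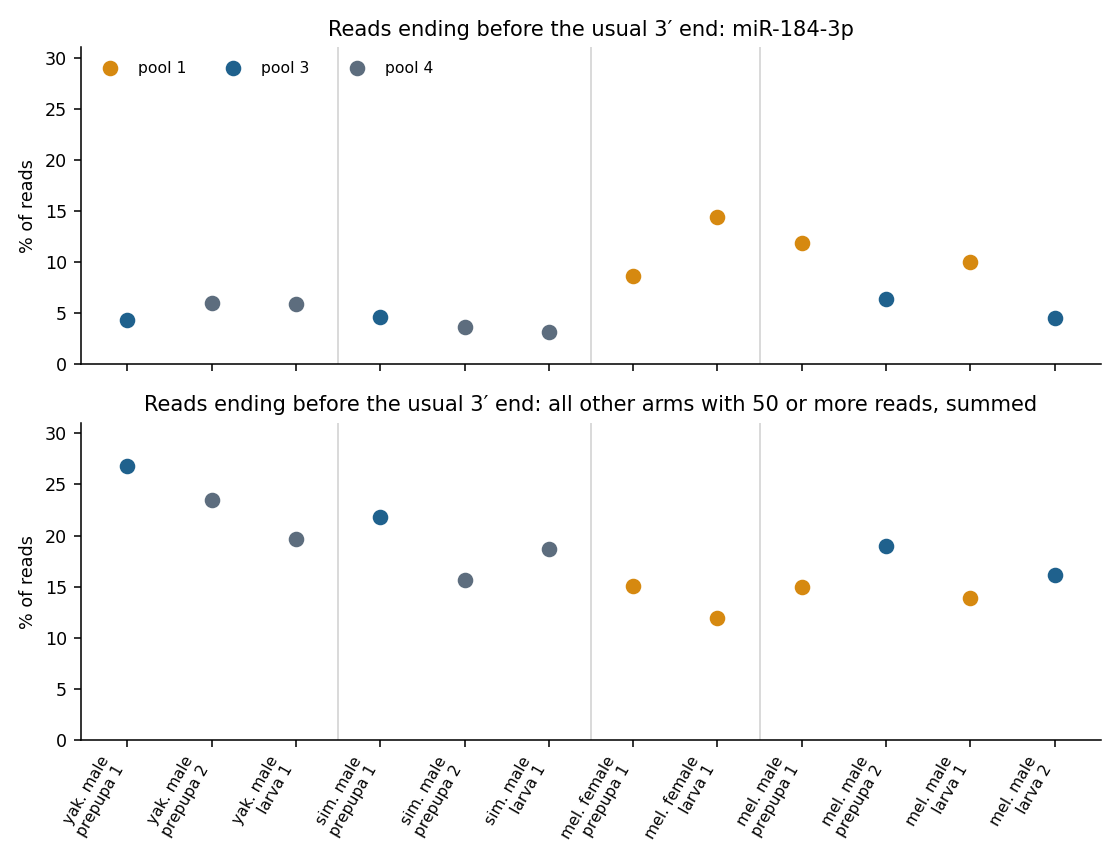
Share of reads (%, vertical axes) that end before the usual 3′ end, for miR-184-3p (upper panel) and summed over all other arms with at least 50 reads (lower panel), in each library, coloured by pool. The 4 pool 1 libraries lie at 8.64% to 14.4% for miR-184-3p, above the 3.16% to 6.41% of pools 3 and 4, and at 11.9% to 15.1% for the other arms, below the 15.7% to 26.8% of pools 3 and 4.

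No contrast of the usual 3′ end passed the test. D. yakuba males minus D. melanogaster males gave a difference in log odds of 0.59 ± 0.27 (limma, adjusted p = 0.154) and D. simulans minus D. melanogaster 0.55 ± 0.27 (limma, adjusted p = 0.189). With the pool as a term they were 0.28 ± 0.27 and 0.36 ± 0.27 (limma, adjusted p = 0.685 and 0.468). D. yakuba minus D. simulans gave 0.04 ± 0.31, females minus males −0.29 ± 0.27, and prepupae minus larvae 0.11 ± 0.20 (limma, adjusted p = 0.910, 0.373 and 0.693). limma called 0 of 7 arms in all 5 contrasts (0%), with 1 or 2 arms at an unadjusted p under 0.05, and the exact two-sided permutation of stage gave p = 0.458 against a smallest p of 0.0417.

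Untemplated additions are bases at the 3′ end that do not match the hairpin. The alignments list 462 such reads of miR-184-3p on the full mature sequence, 1.55% of all its reads. The first added base was A in 360 (77.9%), C in 98 (21.2%) and G in 4 (0.866%), and 376 (81.4%) carried a single added base. A single A accounted for 302 reads, a single C for 71, and A followed by U for 41. The next base of the hairpin is U, which is also the first base of the 3′ adaptor. An added U first, the templated base and a leftover adaptor base therefore cannot be told apart. The 721 reads that are 1 base longer may hold any of them. In the other annotated arms whose next base is also U, 94.5% of 165 additions began with A and 4.24% with C, a lower share of C than on miR-184-3p, and this difference was not tested. Most C additions of miR-184-3p came from pool 1 of D. melanogaster, which also held most additions of any kind. There C came first in 39 of 154 in female prepupae and 0 of 6 in female larvae. It was 30 of 92 in male larvae and 9 of 49 in male prepupae. In pool 3 it was 9 of 78 in D. simulans prepupae, and 3 of 21 in both D. yakuba prepupae and D. melanogaster male larvae. D. melanogaster male prepupae of pool 3 had 1 of 8. In pool 4, D. simulans had 1 of 9 in prepupae and 3 of 19 in larvae. D. yakuba had 0 of 1 in prepupae and 0 of 4 in larvae there. The part of the pool was not tested.

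D. yakuba had the lowest shares of additions on miR-184-3p. Its male prepupae had 0.784% (21 additions, exact 95% interval 0.486% to 1.20%) and 0.847% (1 addition, 0.0215% to 4.63%), and its male larvae 0.969% (4 additions, 0.265% to 2.46%). D. simulans male prepupae had 1.39% (78 additions, 1.10% to 1.73%) and 1.72% (9 additions, 0.790% to 3.24%), and its male larvae 1.69% (19 additions, 1.02% to 2.62%).

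In D. melanogaster, female prepupae had 1.46% (154 additions, 1.24% to 1.71%) and female larvae 1.80% (6 additions, 0.664% to 3.88%). Its male prepupae had 2.16% (49 additions, 1.60% to 2.84%) and 1.37% (8 additions, 0.592% to 2.68%), and its male larvae 2.15% (92 additions, 1.73% to 2.63%) and 1.59% (21 additions, 0.987% to 2.42%). All 3 D. yakuba libraries lie below the other 9, although 2 of them rest on 4 additions or fewer. Additions summed over other annotated arms were not low in D. yakuba. They made up 2.25% and 3.28% in its prepupal libraries (18 and 5 arms) and 3.17% in its larvae (7 arms). The other 9 libraries had 1.37% to 2.70%. The sum depends on which arms hold the reads, and the part of this was not tested. miR-1-3p, with a median of 4.98% additions, held 47.4% and 9.49% of miRNA reads in D. yakuba prepupal libraries and 37.0% in its larvae. In single-arm fits against D. melanogaster males, given below, miR-1-3p and miR-31a-5p were also lower in D. yakuba. There miR-31b-5p was −0.14, miR-263a-5p 0.72 and miR-275-3p 0.57 in log odds, none of them called.

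**Figure D5:**
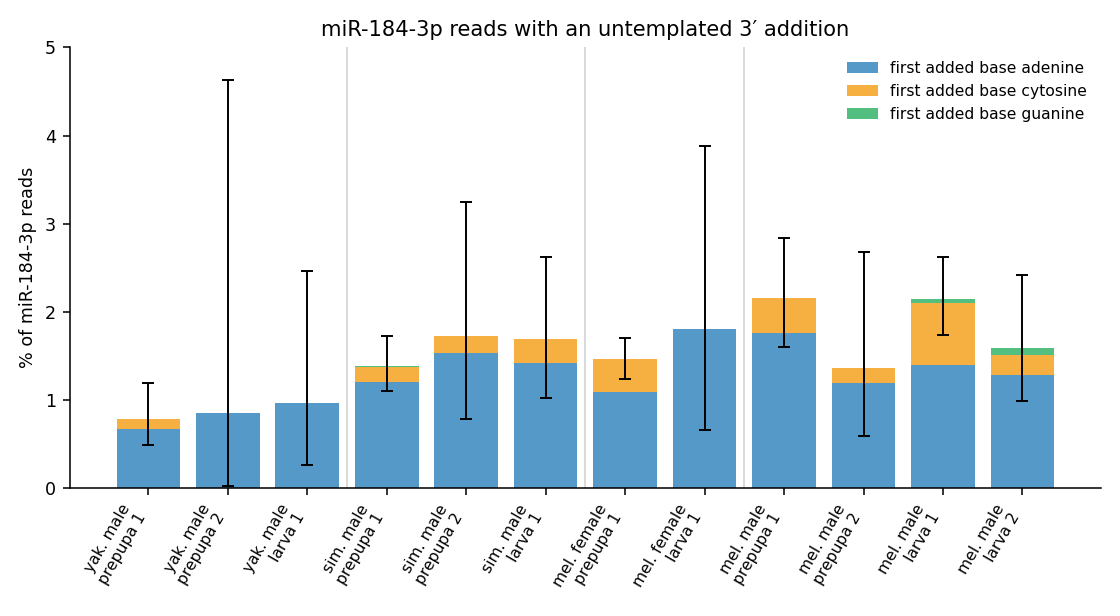
Share of miR-184-3p reads with an untemplated 3′ addition (%, vertical axis) in each library, with bars split by the first added base and exact 95% intervals of the total. D. yakuba libraries lie at 0.784% to 0.969% and the other 9 at 1.37% to 2.16%.

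D. yakuba males minus D. melanogaster males gave a difference in log odds of −0.68 ± 0.19 (limma, n = 2 and 4 RNA samples, adjusted p = 0.0305), and 3 of 6 arms were called (50%). The others were miR-31a-5p at −0.98 ± 0.18 and miR-1-3p at −0.73 ± 0.25 (limma, adjusted p = 0.00701 and 0.0452). Fits with a pool, block or index term kept technical libraries apart, which makes their p-values too small. They tested 4 arms in place of 6, and the replicate number is not a common block across species. With the pool as a term the D. yakuba difference was −0.59 ± 0.15 (limma, adjusted p = 0.0302) and with the replicate number as a block −0.56 (limma, adjusted p = 0.0353). With the index as a term it was −0.35 ± 0.28 (limma, adjusted p = 0.296), and with each library left out it was −0.76 to −0.45, past the threshold in 5 of 12 fits (limma, adjusted p 0.0194 to 0.104). It missed the threshold without the first D. yakuba prepupal library, the D. yakuba or D. simulans larval library, either female library of D. melanogaster, its first male larval library or its second male prepupal library. Index CGAT, which 2 of the 3 D. yakuba libraries carry, was given to no other species.

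D. yakuba minus D. simulans gave −0.52 ± 0.22 (limma, adjusted p = 0.155; −0.47 and adjusted p = 0.01999 with the pool as a term, technical libraries apart), D. simulans minus D. melanogaster −0.15 ± 0.19 (limma, adjusted p = 0.571) and females minus males −0.08 ± 0.19 (limma, adjusted p = 0.796). In these 3 contrasts limma called 0 of 6 arms (0%), with 1, 1 and 0 at an unadjusted p under 0.05. Prepupae minus larvae gave −0.18 ± 0.14 (limma, adjusted p = 0.731; 1 of 6 arms called, 16.7%), and the exact two-sided permutation p was 0.125. Among the 10 arms with the highest mean share, miR-184-3p had the fourth highest median share of additions, 1.53%, after miR-1-3p (4.98%), miR-8-3p (4.64%) and miR-31a-5p (2.62%).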

How the data were processed

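Small RNA of 16 to 28 nt from whole bodies was sequenced, per the labels. The authors aligned reads to the hairpins of miRBase release 15, per the file headers, with Bowtie 0.12.5, per the submitters' processing notes. For genome versions the sources used here give none. The deposited summary table holds expected counts (reads divided among matching loci), and the deposited alignment texts list counts per read sequence and library. Neither is normalised. Counts per arm were summed from the texts, with reads on several miRNAs divided evenly and sums rounded. Of 3306 summary cells compared, 3287 lay within 1 read, and those of mir-184 were equal. The 8 summary columns of 4 other libraries were not used. All templated reads matched perfectly. Additions are listed apart and were added to the denominator of their share only.

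Technical libraries were summed (10 RNA samples). Reads were tested with edgeR 4.0.16 (TMM, filterByExpr, quasi-likelihood F test) over all arms, and cross-species fits used the 124 arms shared by the 3 species. Logits of start, end and addition shares (0.5 added, 50 reads in every RNA sample) were tested with limma 3.58.1, in R 4.3.3, with a threshold of 0.05 after Benjamini-Hochberg adjustment in each comparison. The SE printed with edgeR values is an approximation, the absolute log2 change divided by the square root of the F statistic. Both tests were tried on simulated data. DESeq2 1.42.0 was an alternative. Intervals are exact (Clopper-Pearson, 95%) and, like the floor of 3 counts, cover counting error only, since reads carry no molecular identifiers. Fits with an index, pool or block term kept technical libraries apart, which makes their p-values too small. The 2 libraries of a D. melanogaster male group come from different total RNA samples, per the labels; p-values measure only the spread between these samples, which may be technical.

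Replicate numbers 1 and 2 of D. melanogaster males go with pools 1 and 3 in the sample names, and same-pool deviations of larvae and prepupae had r = 0.644 over 58 arms, so the number was tried as a replicate block. In D. yakuba and D. simulans, number 1 goes with pool 3 or 4 and number 2 with pool 4. The number is therefore not a common block across species. The named arms were both arms of mir-184, the 4 most and 2 least like it among arms with 10 reads in every RNA sample, and the 10 with the highest mean share. The gene, the lists and the tests were chosen with earlier results of these data known. The comparison of starts with indexes, the pool as a term, the pool comparison of 3′ ends, libraries of 1 index and the male libraries alone were chosen after seeing the data.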

Additional observations from a re-analysis of the deposited data

How the results depend on the processing

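Of the 120 other settings for the level of miR-184-3p, 35 turned the sign and none passed the threshold (lowest adjusted p 0.135), and of the 76 with a library left out, 14 turned it; the cause was not tested. Stage in D. melanogaster males (log2) was −0.34 without a filter, −0.28 with 100 reads in every sample and −0.019 without the 3 other most abundant arms. Across species it was 0.12 with RLE scaling and with DESeq2, 0.39 with upper quartiles, 0.020 with totals, 0.10 without a filter, 0.037 without the 3 arms, 0.46 with an index term, 0.019 with first technical libraries, 0.17 on D. melanogaster hairpins and 0.083 with 1 index per species. Its difference between D. yakuba and D. melanogaster was 0.077 with totals, 0.62 without a filter and without the 3 arms, 1.01 with 100 reads, 1.25 with first technical libraries and 0.61 on D. melanogaster hairpins, and between D. simulans and D. melanogaster 0.77 with 100 reads and 0.46 with first technical libraries. D. yakuba minus D. melanogaster was −0.00062 with upper quartiles, −0.42 with totals, −0.14 with 100 reads, −1.09 with an index term and −0.41 with second technical libraries. D. simulans minus D. melanogaster was −0.55 with an index term and 1.97 with a pool term, which gave 1.10 for D. yakuba minus D. melanogaster and −0.88 for D. yakuba minus D. simulans. Females minus males was −0.032 with RLE scaling, −0.23 with upper quartiles, −0.081 with totals and −0.031 with DESeq2.

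For the usual start (log odds), the stage difference was −0.20 as the mean in the exact permutation test. With an index term the start gave −0.40 for D. simulans minus D. melanogaster, −1.17 for D. yakuba minus D. melanogaster, −0.77 for D. yakuba minus D. simulans and 0.75 for females minus males; the pool term gave −2.49 for D. simulans minus D. melanogaster and 3.56 for D. yakuba minus D. simulans. For the usual end, D. yakuba minus D. simulans was −0.27 with an index term and −0.079 with a pool term, and the pool term gave −0.020 for stage and 0.013 for sex. For additions, the index term gave 0.23 for D. simulans minus D. melanogaster, −0.35 for D. yakuba minus D. melanogaster and 0.30 for sex, and the pool term −0.47 for D. yakuba minus D. simulans. With 10 reads as the minimum, D. yakuba minus D. melanogaster was −0.68 and missed the threshold (limma, adjusted p = 0.0672), with 9 arms tested in place of 6. Fits with technical libraries apart tested 4 arms.

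With the replicate block, the stage difference between species was 1.24 for D. yakuba and 0.31 for D. simulans, each minus D. melanogaster, the level of D. yakuba minus D. melanogaster −0.37, the sex difference −0.049, the usual start −2.84 for D. simulans minus D. melanogaster and the usual end −0.079 for D. yakuba minus D. simulans. Stage in D. melanogaster males was 0.0029 under it. It ended the call of the start between D. simulans and D. melanogaster and changed no other call of miR-184-3p.

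With each library left out, level differences ran from −0.61 to 0.88 for stage in D. melanogaster males, −0.66 to 0.86 and −1.67 to 0.29 for its difference in D. yakuba and in D. simulans, −0.25 to 0.54 for D. yakuba minus D. melanogaster and −1.25 to 1.09 for sex. Without a change of sign, they ran from 0.14 to 1.06 for stage over both sexes, −0.49 to −0.0067 for stage across species, 0.35 to 1.07 for D. simulans minus D. melanogaster, −1.31 to −0.15 for D. yakuba minus D. simulans and 1.20 to 2.70 for stage by sex. The start ran from −0.22 to 1.13 for stage, −3.78 to −2.35 for D. simulans minus D. melanogaster and −2.75 to 1.51 for sex. The end ran from −0.021 to 0.23 for stage and −0.29 to 0.25 for D. yakuba minus D. simulans, and additions from −0.76 to −0.45 for D. yakuba minus D. melanogaster and −0.16 to 0.024 for sex.

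edgeR and DESeq2 called 2 and 5 arms for stage over both sexes, 1 and 2 in males of the 3 species, 3 and 6 between D. simulans and D. melanogaster, 4 and 8 for D. yakuba minus D. simulans, 1 and 2 for sex and 1 and 5 for stage by sex. Not run were reads with a perfect match alone, which all templated reads have, an index term within D. melanogaster, where index and group cannot be told apart, and arm usage, since the 5p arm had 0 reads. The shallowest library holds 117 reads of miR-184-3p and 1 addition.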
